A study of Homo sapiens with 6 samples.

Results

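STAT5A and STAT5B, with 7 genes that STAT5 is known to switch on or act through (PIM1, PIM2, SOCS1, SOCS2, SOCS3, CISH and OSM), were followed in peak lists of H3K27ac, a histone acetylation found at active promoters and enhancers. The genes were chosen by name, and they were 9 of the 20007 protein-coding genes of GENCODE release 44 with a canonical start. Each was read in 2 ways: in the promoter window, which reached 2500 bases to each side of the canonical start (5001 bases), and in the gene region, which was the gene body with 20 kb added to each side. The measure in both was the number of bases lying under H3K27ac peaks. Across the series, STAT5A and PIM1 had the widest range of promoter bases between libraries, whereas CISH had a broad acetylated domain in all 4.

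The cytokine receptors of blood cells signal through JAK kinases, which phosphorylate STAT5. The phosphorylated protein pairs up, enters the nucleus and binds a short palindrome, TTCNNNGAA, near its target genes. SOCS1, SOCS2, SOCS3 and CISH are targets that brake the same pathway, PIM1 and PIM2 encode kinases that favour survival and growth, and OSM encodes the cytokine oncostatin M. STAT5 is often active in acute myeloid leukaemia (AML), for example downstream of mutant FLT3.

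The cells were 2 AML lines, Kasumi-1, which carries a RUNX1::RUNX1T1 fusion, and MV4-11, which carries a KMT2A fusion and an internal tandem duplication of FLT3. In each line, a control (NC) was compared with cells carrying a short hairpin RNA against ANP32B (sh-ANP32B), a histone chaperone of the acidic nuclear phosphoprotein family. The labels list the NC cells as untreated, and the methods of the study describe a control hairpin. H3K27ac was profiled by CUT&Tag, in which an antibody guides a transposase to the modified histone. There was 1 peak list for each of the 4 groups, called after replicates had been merged, so that no difference given here has a replicate check and none could be tested.

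The lists held 22136 to 24523 peaks on the main chromosomes. Median peak width was 1044 bases in control and 980 in knockdown Kasumi-1, and 815 and 742 in MV4-11. All peaks of MV4-11 together covered 27891707 bases in NC and 23004402 after knockdown, and for genes with peaks at the promoter in both MV4-11 lists the median ratio of sh-ANP32B to NC was 0.828, against 1.00 in Kasumi-1. Read totals and peak heights were not in the files used, so sequencing depth is unknown. The markers of the lines did not all follow the labels. RUNX1T1, POU4F1 and KIT, taken as markers of Kasumi-1, had no promoter peak in any of the 4 libraries, and HOXA9, a marker of MV4-11, was covered by promoter peaks over 4335 bases in the NC library labelled Kasumi-1 and over 769 in the one labelled MV4-11. HOXA10, another marker of MV4-11, was likewise wider in the NC library labelled Kasumi-1 (5001 and 2648 bases), whereas MEIS1 had 3103 and 3337 in these NC libraries and 3264 and 3123 in the sh-ANP32B libraries, in the same order of lines. LYZ, a myeloid gene, had promoter peaks in the MV4-11 libraries alone (683 bases in NC and 324 in sh-ANP32B). Of 6 myeloid genes, 5 had a promoter peak somewhere and MPO had none, and CD79A, a B-cell gene taken as a marker of other cells, had one in all 4 libraries. Line names below are those of the labels, and whether they name the right cells was not tested. ANP32B itself had a promoter peak in every library, which says nothing about the knockdown, since a hairpin acts on the RNA.

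Of the 9 members, 8 had a promoter peak in each Kasumi-1 library and in control MV4-11, and 4 in knockdown MV4-11. Over all genes the corresponding shares were 47.7%, 45.3%, 35.8% and 28.6%. In the wider gene region all 9 members had a peak in both Kasumi-1 libraries and control MV4-11 and 8 in knockdown MV4-11, and the shares of all genes were 66.1%, 65.1%, 61.5% and 55.9%. STAT5A, SOCS1, CISH and OSM had a promoter peak in all 4 libraries, as did 25.9% of genes. PIM1, PIM2 and SOCS2 had one in all but MV4-11 sh-ANP32B, a pattern held by 7.66% of genes. STAT5B had one in the Kasumi-1 libraries alone (9.72% of genes) and SOCS3 in MV4-11 NC alone (0.525%). The bar plot of promoter bases shows these patterns side by side.

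**Figure D1:**
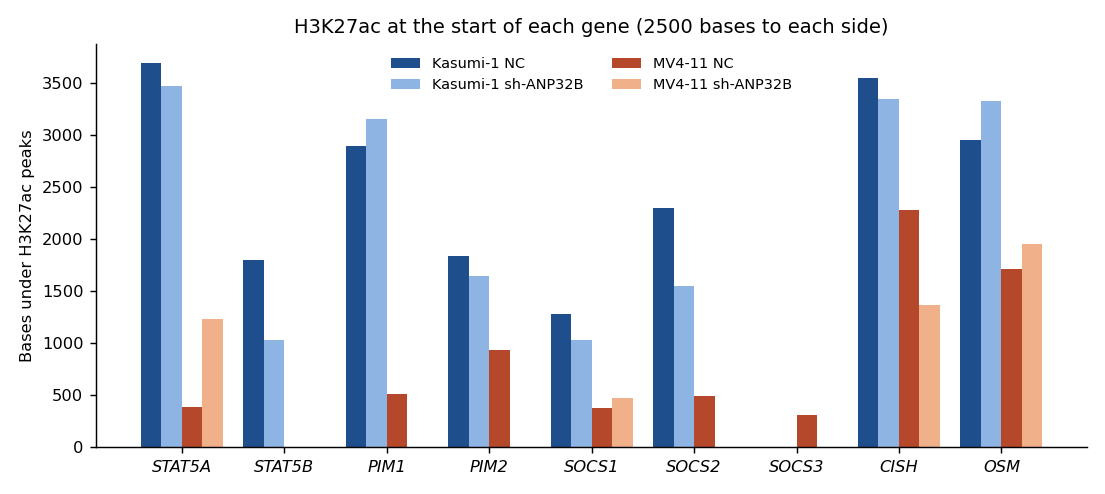
Bases under H3K27ac peaks within 2500 bases of the canonical start (vertical axis) for each member (horizontal axis), with 1 bar per library and no error bars because each group has 1 list. No bar is drawn for PIM1, PIM2, SOCS2 or SOCS3 in MV4-11 sh-ANP32B, nor for STAT5B in either MV4-11 library.

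The letters of the STAT palindrome set apart CISH and SOCS2. The motif TTCNNNGAA reads the same on both strands. It was found 8 times in the promoter window of SOCS2 and 6 times in that of CISH, where the median gene held 1 match. These counts were higher than those of 99.9% and 99.2% of genes respectively. OSM held 4 matches, PIM2 and SOCS3 3 each, STAT5A and PIM1 2 each, SOCS1 1 and STAT5B 0. Having at least 1 match was common, at 74.1% of all windows and 8 of 9 members.

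Both CISH and SOCS2 carried a pair of matches 2 bases apart. Such pairs were found in 19 of 20007 promoter windows (0.095%), and the spacing was chosen for this count after the matches had been seen. The pairs and the second close pair of CISH are printed below because they show the palindromes themselves, with each match in capitals and the gene's strand read 5′ to 3′ in hg38.
CISH first pair, chr3:50611991-50612020, minus strand: ccgttTTCCTGGAAagTTCTTGGAAatctg
CISH second pair, chr3:50611876-50611905, minus strand: ggTTCTAGGAAgacgctgcTTCCGGGAAgg
SOCS2 pair, chr12:93570891-93570920, plus strand: gccgaTTCCTGGAAagTTCCTGGAAagccg
The first CISH pair and the SOCS2 pair were identical at 19 of 20 bases, the exception being T15C, counted from 1 at the first base of the pair with the CISH base first. The matches of the first CISH pair were centred 237 and 226 bases upstream of the canonical start. They lay outside the annotated CISH gene, in an untranslated exon of a transcript annotated to another gene. All 4 CISH matches printed lay under a peak in all 4 libraries. Those of SOCS2, centred 1775 and 1764 bases upstream of its canonical start, lay under a peak in both Kasumi-1 libraries and in neither MV4-11 library.

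In the RefSeq promoter table (300 bases a promoter, 35116 entries on hg38), 7 of the 9 members had an entry, and SOCS2 and OSM were not among them. CISH had 4 matches there, where 7.66% of all entries had any and 0.0484% had at least 3. The remaining 6 had none within their entries, which do not all hold the canonical start or the nearest matches. The SOCS3 entries (78359618-78359917 and 78360876-78361175) left out its start at 78360077. They also left out its matches centred 60 and 345 bases upstream of that start. The PIM2 match centred 247 bases upstream (48919267-48919275) ran past the end of its entry at 48919274. A match is a run of letters and not a binding site, and no binding of STAT5 was measured.

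STAT5A and STAT5B overlap at their annotated upstream ends on chromosome 17 (STAT5A at 42287547-42311943 on the plus strand, STAT5B at 42199176-42288633 on the minus strand). Their canonical starts were 12107 bases apart. Their gene regions shared 41087 bases and so are not separate measurements. At the STAT5A promoter, Kasumi-1 had 3693 bases under a peak in NC and 3470 after knockdown, and MV4-11 had 385 in NC and 1231 after knockdown. The Kasumi-1 libraries were alike and high, and in MV4-11 the value was 3.20-fold higher after knockdown, a ratio above that of 99.6% of genes with a peak in both. The increase came from a wider upstream peak (385 bases at 42287435-42287819 against 680 at 42287134-42287813) and from a second peak of 551 bases across the start (42288186-42288736) that had no counterpart in MV4-11 NC. With windows of 1000 bases the STAT5A difference in MV4-11 was 545 bases, and with only the 10000 widest peaks of each list no STAT5A promoter peak was left in either MV4-11 library.

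The STAT5B promoter had 1801 bases under peaks in the Kasumi-1 control, 1033 in the Kasumi-1 knockdown and 0 in both MV4-11 libraries. Its ratio of 0.574 made it the 1 member of 8 with at least 1.5-fold fewer bases in Kasumi-1 after knockdown, where 14.6% of all genes lost as much or lost the peak altogether. The narrower peak of Kasumi-1 sh-ANP32B (42276628-42277660) ended short of the canonical start at 42276391, which the peak of Kasumi-1 NC (42275796-42277596) crossed.

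Over the gene regions, STAT5A had 8318 bases under peaks in NC and 8210 in sh-ANP32B for Kasumi-1, and 726 and 2436 for MV4-11, while STAT5B had 9930, 9654, 1008 and 2351 in the same order. Both were high and nearly equal in Kasumi-1 and were higher in MV4-11 after knockdown, by 3.36-fold and 2.33-fold. Together with SOCS1 they were the 3 of 9 members called higher there, where 7.66% of genes were higher or gained a peak. In the STAT5A region, besides the promoter, an element in intron 21 of the neighbouring STAT3 (42318973-42321241) carried the change, with 2140, 2267, 341 and 1205 bases in the 4 libraries. With the promoter windows of other genes left out, STAT5B went from 623 to 877 bases in MV4-11 and was no longer called, since 1474 of its 2351 bases lay in windows of other genes. Of those, 1231 lay in the STAT5A window, into which the annotated STAT5B gene also extends. Farther along STAT5B, a small element in intron 16 (42206212-42206911) had a peak in both knockdown libraries (700 bases for Kasumi-1, 294 for MV4-11) and none in either NC library. Of the 34053 merged elements of the genome, 127 had peaks in the sh-ANP32B libraries alone (0.373%).

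One STAT5A match, centred 520 bases downstream of the start and outside annotated exons, is shown because the peak over it was present in both Kasumi-1 libraries and absent from both MV4-11 libraries.
STAT5A, chr17:42288988-42289048, plus strand: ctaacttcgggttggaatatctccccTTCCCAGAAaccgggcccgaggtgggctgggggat

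**Figure D2:**
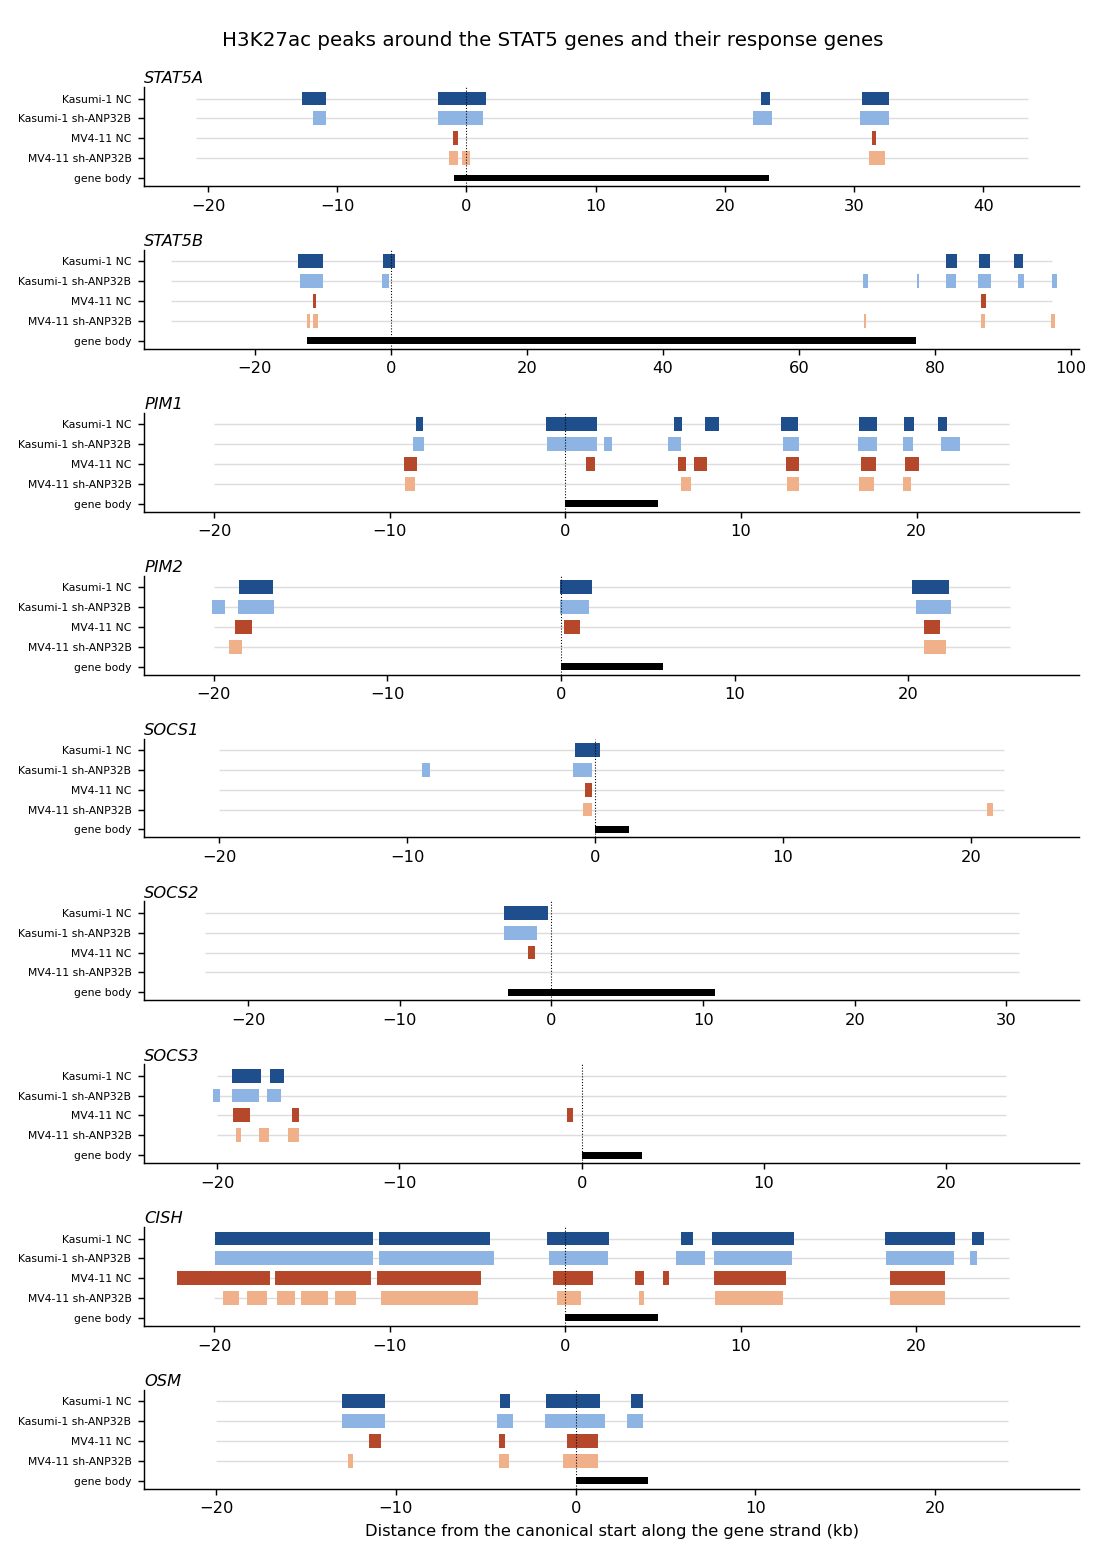
H3K27ac peaks in each library (coloured bars, 1 line per library) against distance from the canonical start along the gene's strand in kb, with the gene body in black, the start dotted and the gene region in grey. Horizontal scales differ between genes. CISH peaks are spread along its region in all 4 libraries and cover 44.1 to 64.5% of it, and the region of SOCS2 holds no peak in MV4-11 sh-ANP32B.

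The kinase genes kept their promoter acetylation in Kasumi-1 and had none called in MV4-11 after knockdown. PIM1 (chromosome 6, 37170152-37175428, plus strand) had 2900 promoter bases under peaks in NC and 3160 in sh-ANP32B for Kasumi-1, and 511 and 0 for MV4-11. PIM2 (chromosome X, 48913182-48919024, minus strand) had 1836 and 1640 for Kasumi-1, and 936 and 0 for MV4-11. Their ratios in Kasumi-1 were 1.09 and 0.893, within 1.5-fold of no change. PIM1, PIM2, SOCS2 and SOCS3 were 4 of the 8 members with a promoter peak in MV4-11 NC that had none in MV4-11 sh-ANP32B, where 24.4% of genes lost theirs.

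None of these 4 lost peaks reached 1000 bases. The PIM1 peak in MV4-11 NC (37171337-37171847) was centred in intron 4, 1440 bases downstream of the start, and was wider than 26.3% of peaks in its list. The PIM2 peak (48917946-48918881, centred in intron 2) was wider than 57.0%, that of SOCS2 than 24.3% and that of SOCS3 than 2.77%. Among genes with at most 1000 bases under promoter peaks in MV4-11 NC, a split added after the values were seen, 43.8% of 3404 lost them and 4 of 6 members did. Among those with more, 6.72% did, and neither CISH nor OSM. Whether peak size had a part in the losses at the members was not tested. With windows of 1000 bases PIM1 and SOCS2 had no peak to lose.

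Over the gene regions the kinases kept peaks in all 4 libraries. PIM1 had 7626 bases (8 peaks) and 8257 (8 peaks) in control and knockdown Kasumi-1, and 4808 (7 peaks) and 3215 (5 peaks) in MV4-11, a ratio of 0.669 in MV4-11 that fell just inside the 1.5-fold limit. PIM2 had 5918, 6411, 2827 and 1989 bases in that order, a ratio of 0.704 in MV4-11. With the promoter windows of other genes left out, PIM2 went from 1905 to 758 bases in MV4-11 and was called lower. Of the 9 elements of the PIM1 region, 5 had a peak in all 4 libraries, and 4 of these stood downstream of the gene, at 37176000-37177330, 37182452-37183478, 37186816-37187889 and 37189358-37190274. No other protein-coding gene starts in the PIM1 region. A further downstream element (37177483-37178921) had 816 bases in the Kasumi-1 control and 706 in the MV4-11 control and no peak in either sh-ANP32B library, a pattern of 188 elements of the genome (0.552%). With only the 10000 widest peaks of each list, no MV4-11 NC peak was left in either kinase region. The differences then turned to 837 bases for PIM1 and 1231 for PIM2. The PIM1 value was a single sh-ANP32B peak (37186864-37187700), kept where a wider NC peak of 862 bases over the same stretch was dropped. That of PIM2 was the peak at the starts of TIMM17B and PQBP1, so neither value was a gain at a kinase promoter.

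The palindromes of the kinase genes lay differently against the peaks. One of the 2 PIM1 matches lay under the promoter peak of both Kasumi-1 libraries and under no peak in MV4-11. None of the 3 PIM2 matches lay under a peak in any library, the peak of PIM2 beginning close to the gene's start and extending into it. The PIM1 match and the 2 PIM2 matches nearest the start are shown for this contrast.
PIM1, chr6:37169202-37169257, plus strand: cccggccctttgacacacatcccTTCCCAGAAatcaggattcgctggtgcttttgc
PIM2, chrX:48919264-48919464, minus strand: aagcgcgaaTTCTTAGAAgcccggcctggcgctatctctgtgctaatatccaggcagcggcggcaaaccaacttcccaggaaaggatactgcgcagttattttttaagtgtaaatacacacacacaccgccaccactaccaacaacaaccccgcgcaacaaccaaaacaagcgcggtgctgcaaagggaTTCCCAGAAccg

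The inhibitors did not move as 1 group. CISH, which encodes a SOCS-box protein induced early by STAT5 (chromosome 3, 50606489-50611774, minus strand), had 3549 promoter bases under peaks in NC and 3344 in sh-ANP32B for Kasumi-1, and 2278 and 1370 for MV4-11. It had a single promoter peak in each library, and the peak was narrower by 1.66-fold in MV4-11 after knockdown. That ratio of 0.601 was above that of 23.5% of genes with a peak in both MV4-11 libraries, and CISH with the 4 members that lost their peak made 5 of 8 lower or lost in MV4-11, where 45% of genes were. In Kasumi-1 the ratio was 0.942. With windows of 1000 bases the CISH difference in MV4-11 was -314 bases, and CISH was no longer called there.

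The region of CISH had the largest share under peaks of the 9. Peaks covered 63.7% of it in NC and 64.5% in sh-ANP32B for Kasumi-1, and 54.9% and 44.1% for MV4-11, against at most 18.2% for any other member in any library. In bases these were 28856, 29190, 24843 and 19961. Such breadth was also seen outside the members. The region of SH2B3, another pathway gene, had 25028, 25069, 23759 and 22182 bases in the same order, though region lengths differ between genes. When peaks up to 10 kb apart were stitched into domains and ranked by their bases under peaks, the domain of the CISH promoter ranked 7 of 13349 in control and 11 of 13319 in knockdown Kasumi-1, and 12 of 14216 and 20 of 12747 in MV4-11. It was thus among the domains with the most bases under peaks in each list. The start of MAPKAPK3, which encodes a kinase of the p38 pathway, lay 5377 bases away within it, and the elements with the most bases lay in that gene rather than in CISH. The larger of them (50622747-50635009, centred in intron 2 of MAPKAPK3) had 11463 bases in control and 11432 in knockdown Kasumi-1, and 10743 and 7117 in MV4-11. It was broken into 6 peaks in MV4-11 sh-ANP32B and held 2 in each of the other libraries. The element next to it (50615844-50622485) changed less, with 6314, 6527, 5919 and 5525 bases.

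**Figure D3:**
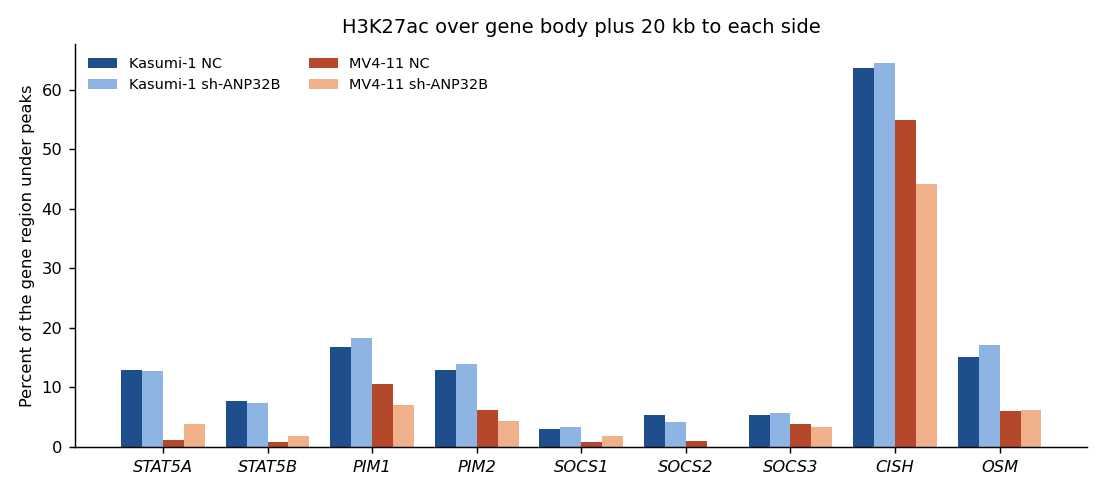
Percent of the gene region (gene body plus 20 kb to each side) under H3K27ac peaks for each member, with 1 bar per library and no error bars. CISH stands at 44.1 to 64.5%, and no other member exceeds 18.2% in any library.

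SOCS1, an inhibitor of JAK kinases (chromosome 16, 11254417-11256204, minus strand), had 1281 promoter bases under peaks in NC and 1029 in sh-ANP32B for Kasumi-1, and 375 and 468 for MV4-11. It had a promoter peak in all 4 libraries, and neither knockdown moved it by 1.5-fold (ratios 0.803 and 1.25). Its region was called higher in MV4-11 (375 to 778 bases) through a single peak of 310 bases downstream of the gene, and with 1 common minimum width of 357 bases the difference was 93 bases. SOCS2, which dampens growth hormone signalling (chromosome 12, 93569814-93583487, plus strand), had 2297 and 1551 for Kasumi-1, and 489 and 0 for MV4-11. The knockdown value was the lower in both lines, and its Kasumi-1 ratio of 0.675 lay just short of the call. Its peak was the only one in its region, so SOCS2 was also the 1 member of 9 lower or lost over the gene region in MV4-11, where 39.4% of genes were and 12.4% of those with a peak lost all. Its peaks in all 3 libraries lay upstream of the canonical start, mostly over the part of the annotated gene that precedes it.

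SOCS3, an inhibitor of signalling through the gp130 receptor chain (chromosome 17, 78356778-78360077, minus strand), had 0 promoter bases under peaks in both Kasumi-1 libraries, and 310 (NC) and 0 (sh-ANP32B) in MV4-11. That peak (78360572-78360881) was near the smallest width in its list, which was 289 bases. All Kasumi-1 bases in the SOCS3 region lay in the promoter window of the neighbouring PGS1, so no Kasumi-1 peak there was its own by this measure. The peak held no STAT palindrome.

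OSM (chromosome 22, 30262829-30266851, minus strand) stayed within 1.5-fold at its promoter in both lines, as SOCS1 did. It had 2951 promoter bases under peaks in NC and 3327 in sh-ANP32B for Kasumi-1, and 1712 and 1956 for MV4-11, so that both ratios lay slightly above 1 (1.13 and 1.14). In MV4-11 this put OSM above 87.0% of genes with a peak in both libraries. Its region held 6618, 7523, 2675 and 2766 bases, and 3 of its 4 elements had a peak in all 4 libraries. LIF, a cytokine gene of the same family whose start lay 20092 bases away, had no promoter peak in any library.

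Over the 9 genes, as over all genes, more calls were made in MV4-11 than in Kasumi-1, a difference between lines that was not put to a test. In Kasumi-1, 0 of 8 lost a promoter peak (background 6.8%), 0 of 8 were higher or gained (4.86%), and no gene region was called in either direction (8.79% lower and 5.65% higher over all genes), with region ratios from 0.759 for SOCS2 to 1.14 for OSM. In MV4-11, 5 of 8 promoters were lower or lost (45% of all genes) and 1 of 8 was higher (7.28%). Over the MV4-11 regions 1 of 9 was lower or lost (39.4%) and 3 of 9 were higher (7.66%). The 3 were STAT5A, STAT5B and SOCS1 and are not 3 separate measurements. The STAT5A and STAT5B regions share 41087 bases, and without other genes' promoter windows STAT5B was not called. SOCS1 was called through a single peak of 310 bases, below the common minimum width of 357. The median log2 ratio of the members with a peak in both libraries was -0.13 in Kasumi-1 (n = 8 genes; 0.0041 over all genes) and 0.26 in MV4-11 (n = 4; -0.27 over all genes). The MV4-11 median leaves out the 4 members that lost their peak.

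**Figure D4:**
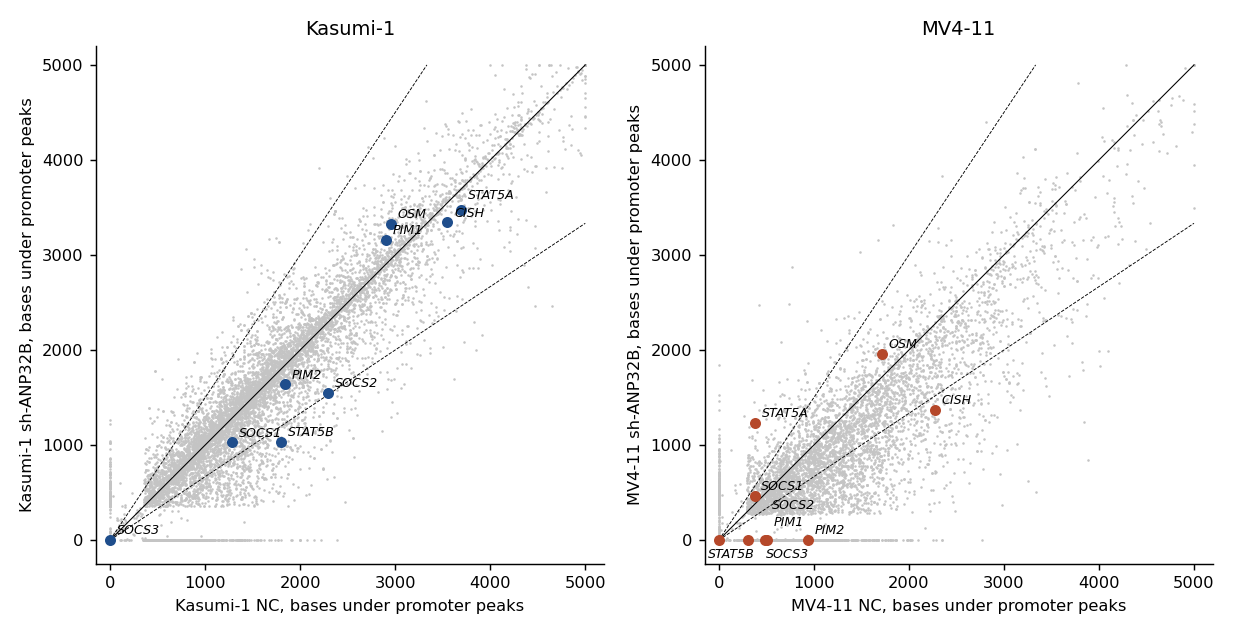
Bases under promoter peaks in NC (horizontal axis) and sh-ANP32B (vertical axis) for all genes with a promoter peak in either library (grey) and the members (coloured), with the line of equality and dashed lines at 1.5-fold. In Kasumi-1 all members with a peak but STAT5B lie between the dashed lines. In MV4-11 STAT5A lies above the upper dashed line and PIM1, PIM2, SOCS2 and SOCS3 lie on the horizontal axis.

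More member promoters were called between the lines than after knockdown in either of them, as was so over all genes. In MV4-11 NC, 8 of 9 member promoters were lower or lost relative to Kasumi-1 NC, where 61.9% of all genes were, and only SOCS3 was gained (5.84% of genes higher or gained). STAT5A stood at 0.104 of its Kasumi-1 NC value, below all but 0.567% of genes, and PIM1 at 0.176. CISH, at 0.642, was near the middle of all genes (percentile 46.7). The median log2 ratio was -1.77 over the 7 members with a peak in both and -0.58 over all genes. Over the gene regions 7 of 9 members were lower (50.9% of genes lower or lost), the ratios being 0.0873 for STAT5A and 0.102 for STAT5B, which share much of their region. SOCS3 (0.698) and CISH (0.861) were within 1.5-fold, and 0 of 9 were higher (14.8% of genes higher or gained). Between the sh-ANP32B libraries, 8 of 8 promoters (74.2% of genes) and 8 of 9 regions (64.9%) were lower or lost in MV4-11. Line, label and library cannot be told apart in these comparisons, and peaks were narrower genome-wide in MV4-11.

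Merging overlapping peaks of the 4 lists gave 44 elements in the member regions. Of these, 20 had a peak in all 4 libraries, against 32.2% of all elements, 8 had peaks in both Kasumi-1 libraries alone (14.1%) and 2 in both MV4-11 libraries alone (12.4%). Member elements were longer, with a median of 1424.5 bases against 1014, and had a higher median GC content (55.2% against 51.9%). They held 0.429 palindromes per 1000 bases, and all elements held 0.253. At least 1 match was found in 16 of the 44 member elements (36.4%) and in 27.3% of all elements. Of the 37 matches in member elements, 5 lay under promoter peaks of CISH and 4 each under those of SOCS2 and OSM. Some elements lay at the promoters of other genes, and the values of a region are therefore not the member's alone. KCNH4, HCRT and GHDC start in the STAT5B region and TIMM17B and PQBP1 in that of PIM2, all with promoter peaks in both Kasumi-1 libraries, whereas SLC35A2 in the PIM2 region and TNP2 and PRM3 in that of SOCS1 had none in any library.

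The rest of the pathway was read from a list of 55 genes: JAK kinases, other STAT genes, receptors, other brakes and adaptors, and other STAT5 response genes. A promoter peak was present for 39 of them in the control and 34 in the knockdown of Kasumi-1, and for 27 and 23 in those of MV4-11. In Kasumi-1, 8 of 39 were lower or lost after knockdown (14.6% of all genes) and 0 higher. These 8 were 6 of 16 brakes and adaptors, 1 of 4 JAK kinases and 1 of 11 response genes with a peak in either library. Among the brakes and adaptors, PIAS4, an inhibitor of STAT activity, went from 1516 bases to 0 and SOCS6 from 628 to 0. PTPN1, a phosphatase of JAK kinases, went from 364 to 0, and 3 more were lower. JAK1 went from 528 bases to 0 and ID1 from 472 to 0. All 4 other STAT genes with a peak stayed within 1.5-fold in Kasumi-1, as did the 4 receptors.

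In MV4-11, 12 of the 29 pathway genes with a peak in either library were lower or lost (45% of all genes) and 4 higher or gained (7.28%). Lower or lost were 1 of 3 JAK kinases, 0 of 2 other STAT genes, 2 of 5 receptors, 5 of 10 brakes and adaptors and 4 of 9 response genes. CSF3R, the receptor of granulocyte colony-stimulating factor, went from 1321 bases to 0 there and MYC from 893 to 0, while in Kasumi-1 both stayed high (2043 and 2020 bases for CSF3R, 3828 and 3843 for MYC). CBL, which targets receptors for degradation, went from 409 bases to 0 and SOCS6 from 367 to 0. Gains were seen at IL7R, which went from 0 to 676 bases, and at GAB2, an adaptor that binds phosphorylated receptors, from 0 to 463. In Kasumi-1, GAB2 went the other way, from 2082 bases in NC to 922 in sh-ANP32B, and IL7R had no promoter peak. Between the NC libraries, 26 of 39 were lower or lost in MV4-11 (61.9% of all genes) and 2 higher (5.84%). The stacked bars compare these shares with those of the members and of all genes.

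**Figure D5:**
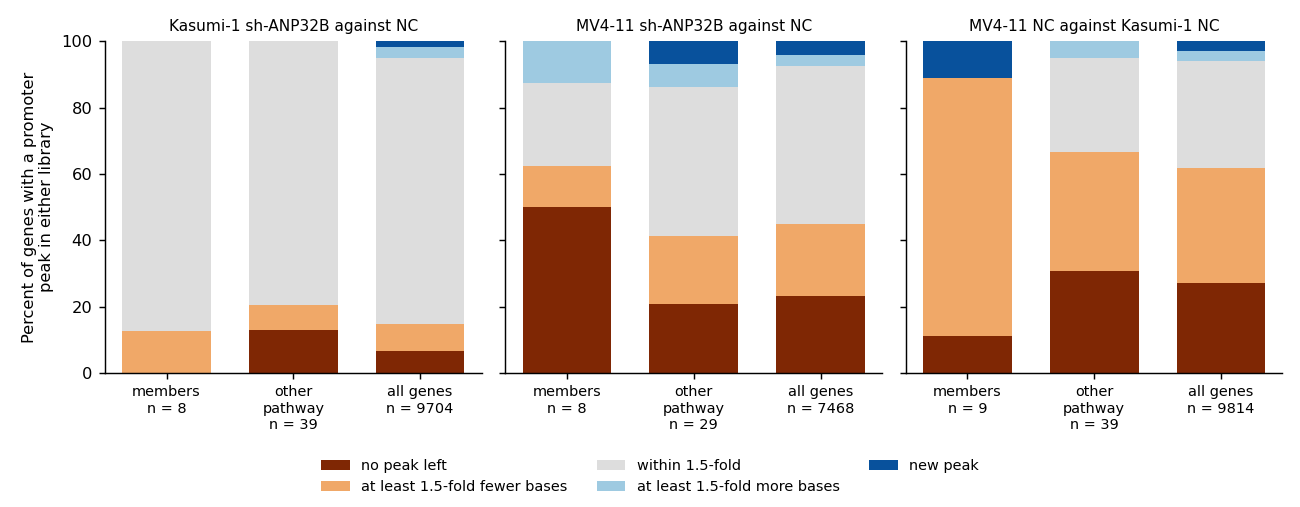
Percent of genes with a promoter peak in either library (vertical axis) by class of change, for the members, the 55 other pathway genes and all genes, in 3 comparisons, with the number of genes under each bar. Each title names a library and then the one it is set against. In MV4-11 sh-ANP32B, 4 of 8 members have no peak left, against 23.3% of all genes.

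The genes outside each region whose promoter bases over the 4 libraries were closest to a member, by Euclidean distance in bases, were named for comparison. CPEB2 (distance 291) and CISD3 (369) were closest to STAT5A, and P3H1 and C1orf50 (16.0 each), which had the same 4 values, to STAT5B. NOP56 (151) and DECR2 (177) were closest to PIM1 and AP3B1 (101) and ISY1-RAB43 (108) to PIM2. For SOCS1 they were DYNC1H1 (141) and PCNA (146), for SOCS2 SIVA1 (139) and ZNRF1 (165), and for SOCS3, whose pattern is a single small peak, SHH (0) and ZCCHC4 (7). SH2B3 (226), which encodes an adaptor that restrains JAK2, and SERINC5 (302) were closest to CISH. NFKBIA (247), which encodes an inhibitor of NF-kappa-B, and IQCN (324) were closest to OSM.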

How the data were processed

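Per the study's methods, the authors aligned CUT&Tag reads to hg38 with Bowtie2 v2.2.5, removed duplicates with Picard, merged replicates with samtools v1.15.1 and called peaks with MACS2 v2.2.7 (q-value 0.01), whereas the submitters' processing notes name Bowtie2 2.4.4 and MACS3 3.0. Whether IgG libraries were the control for peak calling is not given in the sources used here. The 2 IgG libraries were not analysed here. The deposited lists give the position and length of each peak in bases, counted from 1, without heights, and length equals end minus start plus 1. In each list the smallest gap exceeds the smallest width by 1 base, with smallest widths from 275 to 357 bases, so the caller's width and joining settings differed between libraries.

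Bases under peaks on chromosomes 1 to 22, X and Y were summed with Python 3.11.15 in promoter windows and gene regions, with gene models of GENCODE release 44. A call was a difference of at least 1.5-fold, or a peak in 1 library only. With 1 list per group no test was made. Intersections were tested on simulated data. The alternatives were windows of 1000 bases, gene bodies alone or with 50 kb, other genes' windows left out, a width floor and joining gap of 357 bases for all lists, the 10000 widest peaks, a fold of 2, the sh-ANP32B libraries for the lines, and elements joined within 1000 bases. Named genes were the members, pathway genes that lost or gained all promoter peaks (at most 10, widest first), genes starting in a member region and the 2 closest patterns. The members, lists and motif were chosen with earlier results of these data known. Some items of the marker list and some promoter stretches are not reported here.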

Additional observations from a re-analysis of the deposited data

Results flagged for a closer look

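Some members differed in opposite directions in the lines after knockdown, but none of the Kasumi-1 differences was large enough for a call and their direction depended on the setting. Each line had 1 library per group, and whether the lines differ was not tested. STAT5A had -223 bases under promoter peaks (sh-ANP32B minus NC) in Kasumi-1 and 846 in MV4-11, and -108 and 1710 over its gene region. STAT5B had -276 bases over its gene region in Kasumi-1 and 1343 in MV4-11. The STAT5A and STAT5B regions share 41087 bases, so their values are not separate. PIM1 went the other way, with 260 bases at the promoter in Kasumi-1 and -511 in MV4-11. In Kasumi-1, the STAT5A promoter difference was 0 with windows of 1000 bases, and its region difference was 351 with the gene body alone, 2095 with 50 kb and 660 without other genes' windows. That of the STAT5B region was 800 with 50 kb and 497 without other genes' windows. That of the PIM1 promoter was 0 with windows of 1000 bases and -19 with the 10000 widest peaks.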

How the results depend on the processing

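No paired analysis was possible because each group had 1 library and no result came from a test. Over the MV4-11 regions, where PIM1 (-1593 bases) and PIM2 (-838) were not called, the 10000 widest peaks turned both (837 and 1231). That setting dropped every MV4-11 NC peak of both regions. The Kasumi-1 promoters lower or lost (1 member) became 2 with windows of 1000 bases or with the 10000 widest peaks and 0 with a fold of 2. The MV4-11 promoters lower or lost (5) became 2 with windows of 1000 bases. There the MV4-11 NC peaks of PIM1 and SOCS2 lie farther from the start, and CISH, with a difference of -314 bases, was no longer called. The 5 became 1 (CISH) with the 10000 widest peaks, which drop the small NC peaks, and 4 each with a common width and gap and with a fold of 2. The 1 MV4-11 promoter that was higher became 0 with the 10000 widest peaks. Between the NC libraries, the 8 promoters lower or lost became 5 with windows of 1000 bases and 5 with a fold of 2, and the gain of SOCS3 became 0 with a common minimum width and gap, with the 10000 widest peaks and between the sh-ANP32B libraries. Over the regions, the 0 members lower or lost in Kasumi-1 became 1 with gene bodies alone and 1 with the 10000 widest peaks. The 1 such member in MV4-11 became 4 with gene bodies alone, 2 with 50 kb added, 2 without other genes' promoter windows and 0 with the 10000 widest peaks. Between the NC libraries, the 0 regions higher or gained became 1 without other genes' windows. Except where stated, the cause was not tested. The 3 MV4-11 regions that were higher became 2 with gene bodies alone, with 50 kb, without other genes' windows and with the common width and gap. The count stayed at 3 with the 10000 widest peaks, but STAT5B and SOCS1 then differed by 0 bases and PIM1 and PIM2 were higher. Of 234 recomputed differences for single members, leaving out the fold, which cannot change one, 144 moved by more than the margin of the 95% Wilson interval of the covered share and 90 did not. That interval counts bases as independent, whereas they come in contiguous peaks, so its margin does not measure the spread between libraries. Depth was unknown, so that a peak missing from a list may lie below the calling threshold and is not shown to be absent.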
